A study of Mus musculus with 8 samples.

Results

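Granulocytes and monocytes arise from hematopoietic stem cells (HSCs) through granulocyte-monocyte progenitors. The genes described here are markers and regulators of that path: Mpo, Elane, Prtn3, Ctsg, Cebpa, Cebpb, Cebpe, Spi1, Cd33 and Itgam. They are 10 of the 27600 gene names on the arrays, and every non-control probe that carries one of these names was taken, with Elane listed as Ela2 and Spi1 as Sfpi1 in the files. Of the 10 genes, 9 have a probe, 12 probes in all, and Cebpe, a factor of late granulocyte maturation, has none.

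Total RNA of mouse bone marrow HSCs, strain B6, was hybridised to 1-colour Agilent expression arrays. There were 3 arrays of NrasG12D/G12D cells, with 2 mutant alleles, 3 of NrasG12D/+ cells, with 1 mutant allele, and 2 of Nras+/+ control cells, with none. The mutation was expressed from the endogenous Nras gene and is known to hold this small GTPase in its active form. The sources used here give neither age nor the sort of the cells, the way the allele was switched on or whether the samples of a genotype are different animals. The p-values thus cover the spread between samples, which may be technical.

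In the early steps of this path the transcription factors PU.1, the product of Spi1, and C/EBPα, the product of Cebpa, act together on the genes of the myeloid program. Promyelocytes then fill their azurophil granules with myeloperoxidase (Mpo) and the serine proteases neutrophil elastase (Elane), proteinase 3 (Prtn3) and cathepsin G (Ctsg). The surface molecules Cd33 and CD11b, the product of Itgam, mark myeloid cells, and CD11b is typical of mature granulocytes and monocytes.

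The 4 granule genes share a sequence feature close to their start. The heptamer AGGAAGT, a form of the purine-rich site bound by PU.1, was searched on both strands from 250 bases before to 50 bases after each annotated start in RefSeq promoters of build GRCm38.p6. The heptamer was chosen after these promoters had been read, so its count in them is no test of enrichment. It occurred in 4 of the 8 members with a promoter entry, which were the 4 granule genes, and in 9.4% of all 32851 promoter windows. In Cebpa, Cebpb, Cd33 and Itgam these letters are not in the window. Stretches of 60 bases on the strand of the gene are printed with the heptamer in capitals, because this is what the promoters of the granule genes have in common.
Mpo, chr11:87793535-87793594, plus strand: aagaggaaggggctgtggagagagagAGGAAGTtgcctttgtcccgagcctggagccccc
Elane, chr10:79886202-79886261, plus strand: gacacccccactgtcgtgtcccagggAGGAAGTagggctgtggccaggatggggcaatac
Prtn3, chr10:79879547-79879606, plus strand: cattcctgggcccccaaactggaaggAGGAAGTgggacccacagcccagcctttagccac
Ctsg, chr14:56102747-56102806, minus strand: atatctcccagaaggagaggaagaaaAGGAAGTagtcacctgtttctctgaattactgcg
The first base of the heptamer lies 223 bases before the start in Mpo, 84 in Elane, 94 in Prtn3 and 206 in Ctsg. A C/EBP motif, TTNNGNAA, was found in 1 of the 8 promoters, that of Itgam, against 40.7% of all windows. A match of letters is a description and not a site of binding.

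The array probes are 60 bases long. The first 30 bases are shown for the probes on which the results turn, those of Cd33, Ctsg and Mpo and both probes of Cebpa. Positions are those of the files, which state no genome build, and exon or UTR annotation in that build was not used here.
Cd33, chr7:43396722-43396781: gacatcatctgactttgcaataagagaccc
Ctsg, chr14:55054029-55054088: gacgctttgcaccaagatatcagagacctg
Mpo, chr11:87619795-87620570: tagaggttgggagtctgccgggagaaggac
Cebpa, tested probe, chr7:34830258-34830317: ttttgttttggttttgctctgattcttgcc
Cebpa, further probe, chr7:34829102-34829161: cgtggagacgcaacagaaggtgctggagtt
The Mpo probe is listed over 776 bases of the genome, longer than the probe itself. The 2 Cebpa probes share no base.

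Over the arrays, 26% to 42.4% of spots were well above background, a flag set by the scanner software, and median processed signals were 3.09 to 6.75. Across genes, NrasG12D/+ replicate 1 had a mean correlation of 0.564 with the other arrays, against 0.627 to 0.642 for each of the other 7. Of 15 HSC markers, 6 to 9 had a probe well above background on each array, with Ly6a (Sca-1), Slamf1, Fgd5 and Pdzk1ip1 among those so on all 8. Kit was so on 1 array and Procr on none. Of 12 B cell markers, 6 to 10 were well above background on each array, among them Vpreb1 and Ms4a1 on all 8. Cd79a and Ebf1 were well above background on no array and Rag1 on 1. The 3 NrasG12D/G12D arrays shared slide 2 with NrasG12D/+ replicate 3. The remaining 2 NrasG12D/+ arrays were on slide 1, as were both Nras+/+ arrays.

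Testing required a probe well above background on 2 or more arrays, and the brightest probe stood for a gene. This kept 7 of the 10 genes: Mpo, Elane, Prtn3, Ctsg, Cebpa, Cebpb and Cd33. Spi1 was well above background on 1 array, NrasG12D/+ replicate 1. Of the 2 Itgam probes, 1 was well above background on NrasG12D/+ replicate 2 only and the other on no array. Changes are on the log2 scale after each array was scaled to its 75th percentile. The same arrays serve in more than 1 comparison.

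In limma, 0 of the 7 tested genes passed an adjusted p of 0.05 in any of the 3 comparisons, where percent called was 0% of the 15098 genes tested in each. The lowest adjusted p over all genes was 0.0571 for NrasG12D/G12D against Nras+/+, 0.0648 for NrasG12D/+ against Nras+/+ and 0.493 for NrasG12D/G12D against NrasG12D/+. At an unadjusted p under 0.05 there was 1 gene, Cd33, for NrasG12D/G12D against Nras+/+, where 6.44% of all genes were, 1.32% as higher and 5.12% as lower. For NrasG12D/+ against Nras+/+ there was none, against 4.69% of all genes, 2.31% as higher and 2.38% as lower. For NrasG12D/G12D against NrasG12D/+ there were 2, Cd33 on the higher side (1.61% of all genes) and Ctsg on the lower side (4.31%), against 5.91% in all. Cd33 passed the filter through the mutant genotypes alone, and Ctsg through NrasG12D/+ and Nras+/+ alone. The genotype in which each was lowest added no array, so their p-values are not independent of that choice. On simulated data for NrasG12D/G12D against Nras+/+, limma called 164 of 200 genes changed by a log2 value of 8, and 0 of 200 at 4 and at 2.

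**Figure D1:**
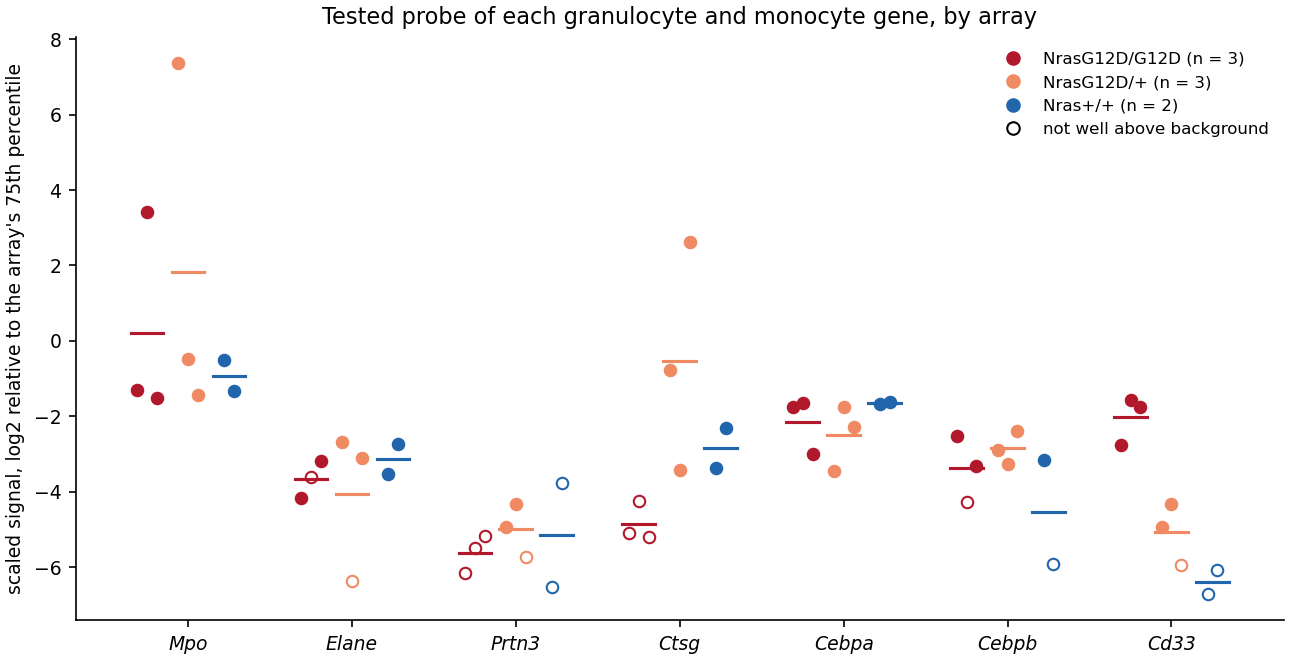
Scaled log2 signal of the tested probe of 7 genes (y axis, relative to the 75th percentile of each array) on the 3 NrasG12D/G12D, 3 NrasG12D/+ and 2 Nras+/+ arrays. Each point is 1 array, open where the probe was not well above background, and each bar is a group mean; levels of different genes cannot be set against each other. The 3 NrasG12D/G12D points of Cd33 lie above all others of that gene, and single NrasG12D/+ arrays stand far above the rest for Mpo (7.36) and Ctsg (2.61).

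Cd33 is a sialic acid-binding lectin of the Siglec family on the surface of myeloid cells. Its processed signal was 41, 49.5 and 54.2 on the NrasG12D/G12D arrays, 11.5, 13.6 and 2.07 on the NrasG12D/+ arrays, and 1.84 and 1.7 on the Nras+/+ arrays. The 3 NrasG12D/G12D arrays were the highest of the 8, with no overlap with either other genotype, and the 2 Nras+/+ arrays were the lowest. The probe was well above background on 3 of 3 NrasG12D/G12D, 2 of 3 NrasG12D/+ and 0 of 2 Nras+/+ arrays. The values of both Nras+/+ arrays and of NrasG12D/+ replicate 3 were surrogates that the scanner software puts in place of signals near background. In these bulk samples, fewer cells of a type and less RNA per cell cannot be told apart.

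On the scaled log2 scale Cd33 averaged -2.03 ± 0.64 in NrasG12D/G12D (SD, n = 3), -5.07 ± 0.82 in NrasG12D/+ (n = 3) and -6.39 ± 0.44 in Nras+/+ (n = 2). The difference of NrasG12D/G12D from Nras+/+ was 4.36 (SE 0.79, limma adjusted p = 0.447), or 4.80 relative to the median of all genes. Because no Nras+/+ array was well above background, the fold is a bound, at least 4.24-fold higher in NrasG12D/G12D. It sets the NrasG12D/G12D mean against a floor for the Nras+/+ arrays, on each array the lowest signal well above background or, if higher, that of Cd33 itself. Leaving out single arrays gave bounds of 3.54 to 5.48. This bound and the at-least folds below are point values that allow for signals near background, and not for the spread between samples. The floor is also no strict limit. On NrasG12D/G12D replicate 2, Elane was not well above background at a scaled log2 signal of -3.61, although the floor was -3.701.

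The log2 change of Cd33 between NrasG12D/G12D and NrasG12D/+ was 3.04 (SE 0.71, limma adjusted p = 0.803). Within slide 2, which holds both genotypes, it was 3.92. For NrasG12D/+ against Nras+/+ it was 1.32 (SE 0.79, limma adjusted p = 0.813), and 1.76 within slide 1. The NrasG12D/+ arrays did not overlap with Nras+/+, but NrasG12D/+ replicate 3, at 2.07, was not well above background. No slide holds both NrasG12D/G12D and Nras+/+, so slide and genotype cannot be told apart in that pair except through the NrasG12D/+ arrays. With the slide as a block the change was 5.68. With normexp background correction, which adds an offset of 50 to each signal, the changes shrank to 0.59 for NrasG12D/G12D against Nras+/+ and 0.93 against NrasG12D/+, and NrasG12D/+ against Nras+/+ turned to -0.34.

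Ctsg encodes cathepsin G, a serine protease of azurophil granules. Its processed signal was 8.17, 7.77 and 4.96 on the NrasG12D/G12D arrays, 208, 25.3 and 779 on the NrasG12D/+ arrays, and 18.6 and 23.0 on the Nras+/+ arrays. All 3 NrasG12D/G12D arrays lay below the other 5 and none was well above background, whereas all 5 others were. NrasG12D/+ replicates 1 and 3 lay above both Nras+/+ arrays; replicate 2 lay above both in processed signal and below both after scaling (-3.42, against -3.36 and -2.32).

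The scaled log2 mean of Ctsg was -4.84 ± 0.52 in NrasG12D/G12D (SD, n = 3), -0.53 ± 3.02 in NrasG12D/+ (n = 3) and -2.84 ± 0.73 in Nras+/+ (n = 2). The change between NrasG12D/G12D and NrasG12D/+ was -4.32 (SE 1.33, limma adjusted p = 0.803), at least 13.2-fold lower. The size depended on the NrasG12D/+ arrays, since the bound was 4.47 without replicate 3 and 36.1 without replicate 2. Without replicate 3 the change was -2.75, and within slide 2, where replicate 3 is the only NrasG12D/+ array, it was -7.45. Set against Nras+/+, NrasG12D/G12D gave -2.0 (SE 1.49, limma adjusted p = 0.752), at least 2.66-fold lower, and -6.70 with the slide as a block. For NrasG12D/+ against Nras+/+ the change was 2.31 (SE 1.49, limma adjusted p = 0.813), and 0.75 both within slide 1 and without NrasG12D/+ replicate 3.

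Mpo encodes myeloperoxidase, the peroxidase of azurophil granules. Its processed signal was 113, 1560 and 63.5 on the NrasG12D/G12D arrays, 58100, 194 and 47.4 on the NrasG12D/+ arrays, and 134 and 45.6 on the Nras+/+ arrays. It was well above background on all 8 arrays. NrasG12D/+ replicate 1 was far above every other array, NrasG12D/G12D replicate 2 came next, and the other 6 arrays lay between 45.6 and 194, so that the 3 genotypes overlapped.

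The scaled log2 mean of Mpo was 0.20 ± 2.78 in NrasG12D/G12D (SD, n = 3), 1.81 ± 4.82 in NrasG12D/+ (n = 3) and -0.92 ± 0.58 in Nras+/+ (n = 2). The change for NrasG12D/+ against Nras+/+ was 2.74 (SE 2.5, limma adjusted p = 0.817), but -0.03 without NrasG12D/+ replicate 1. Between NrasG12D/G12D and Nras+/+ it was 1.12 (SE 2.5, limma adjusted p = 0.905), but -0.49 without NrasG12D/G12D replicate 2. Between NrasG12D/G12D and NrasG12D/+ it was -1.62 (SE 2.24, limma adjusted p = 0.916), but 1.15 without NrasG12D/+ replicate 1. Within slide 2 it was 1.63. On NrasG12D/+ replicate 1, Mpo stood 8.66 log2 units above its median over the other 7 arrays. That gap ranked 306 of the 14670 genes without a missing array, whose median gap between the highest array and the other 7 was 2.0. The corresponding gap of Ctsg, on NrasG12D/+ replicate 3, was 6.03 (rank 822), and that of Cd33, on NrasG12D/G12D replicate 2, was 3.37 (rank 3239).

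Elane and Prtn3 encode the other azurophil serine proteases and are listed next to each other on chromosome 10, with probes at 79291147 to 79291206 and 79284253 to 79285069 in the files' build. The processed signal of Elane was 15.5, 12 and 20 on the NrasG12D/G12D arrays, 55.3, 3.28 and 14.9 on the NrasG12D/+ arrays, and 16.5 and 17.3 on the Nras+/+ arrays. Elane was well above background on 2 arrays of each genotype, and the genotypes overlapped. The low value was that of NrasG12D/+ replicate 2. Its changes were -0.52 (SE 1.11) for NrasG12D/G12D against Nras+/+, -0.92 (SE 1.11) for NrasG12D/+ against Nras+/+ and 0.39 (SE 1.0) for NrasG12D/G12D against NrasG12D/+ (limma adjusted p = 0.903, 0.848 and 0.959). Without NrasG12D/+ replicate 2 the last of these values became -0.76 and the one before it 0.24.

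The processed signal of Prtn3 was 3.88, 3.28 and 5.02 on the NrasG12D/G12D arrays, 11.6, 13.5 and 2.41 on the NrasG12D/+ arrays, and 2.07 and 8.44 on the Nras+/+ arrays. It was well above background on NrasG12D/+ replicates 1 and 2 only, so no fold is given for NrasG12D/G12D against Nras+/+, where neither genotype was measured above background and a direction is not established. Its log2 changes were 0.15 (SE 0.95) for NrasG12D/+ against Nras+/+ and -0.61 (SE 0.85) for NrasG12D/G12D against NrasG12D/+, with limma adjusted p of 0.972 and 0.916. The 4 granule genes therefore had different high arrays. Mpo and Elane were highest on NrasG12D/+ replicate 1, Ctsg on NrasG12D/+ replicate 3 and, after scaling, Prtn3 on Nras+/+ replicate 2, where it was not well above background.

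Cebpa encodes C/EBPα, the factor that opens the granulocyte-monocyte program. The processed signal of its tested probe was 82.9, 46.9 and 22.6 on the NrasG12D/G12D arrays, 32.2, 79.8 and 26.4 on the NrasG12D/+ arrays, and 59.5 and 37.3 on the Nras+/+ arrays. It was well above background on all 8 arrays, and no array stood out on the high side, where the highest was 0.14 log2 units above the median of the other 7 after scaling. NrasG12D/+ replicate 1 (-3.46) and NrasG12D/G12D replicate 3 (-3.01) were low. The changes were -0.48 (SE 0.81, limma adjusted p = 0.876) for NrasG12D/G12D against Nras+/+, -0.85 (SE 0.81, limma adjusted p = 0.821) for NrasG12D/+ against Nras+/+ and 0.37 (SE 0.72, limma adjusted p = 0.948) for NrasG12D/G12D against NrasG12D/+. All 3 NrasG12D/+ arrays were below both Nras+/+ arrays after scaling. Without NrasG12D/+ replicate 1, its lowest array, the change for NrasG12D/+ against Nras+/+ was -0.37.

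The further Cebpa probe gave 96.5, 22.4 and 24.3 on the NrasG12D/G12D arrays, 800 on NrasG12D/+ replicate 1 with 39.8 and 17.3 on the other NrasG12D/+ arrays, and 44.2 and 10.2 on the Nras+/+ arrays. On NrasG12D/+ replicate 1 it was at its highest, 3.94 log2 units above the median of the other 7 arrays after scaling, while the tested probe was at its lowest there. Its changes were 0.42 (SE 1.27), 1.31 (SE 1.27) and -0.89 (SE 1.13) in the same order of comparisons, each with the sign opposite to the tested probe. The groups overlapped in all 3. The direction of Cebpa therefore depends on the probe.

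Cebpb encodes C/EBPβ, a related factor known for granulocyte production under stress. The processed signal of its tested probe was 48.7, 7.57 and 18.3 on the NrasG12D/G12D arrays, 48.2, 28 and 24.5 on the NrasG12D/+ arrays, and 21.5 and 1.91 on the Nras+/+ arrays. Nras+/+ replicate 2 and NrasG12D/G12D replicate 2 were low and not well above background. The changes were 1.16 (SE 0.97, limma adjusted p = 0.767) for NrasG12D/G12D against Nras+/+, 1.69 (SE 0.97, limma adjusted p = 0.813) for NrasG12D/+ against Nras+/+ and -0.52 (SE 0.87, limma adjusted p = 0.933) for NrasG12D/G12D against NrasG12D/+. Without Nras+/+ replicate 2 the first was -0.22 and the second 0.31. The further Cebpb probe, well above background on 1 array of each genotype, gave -0.52 (SE 0.90), -0.93 (SE 0.90) and 0.41 (SE 0.80), again with opposite signs.

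**Figure D2:**
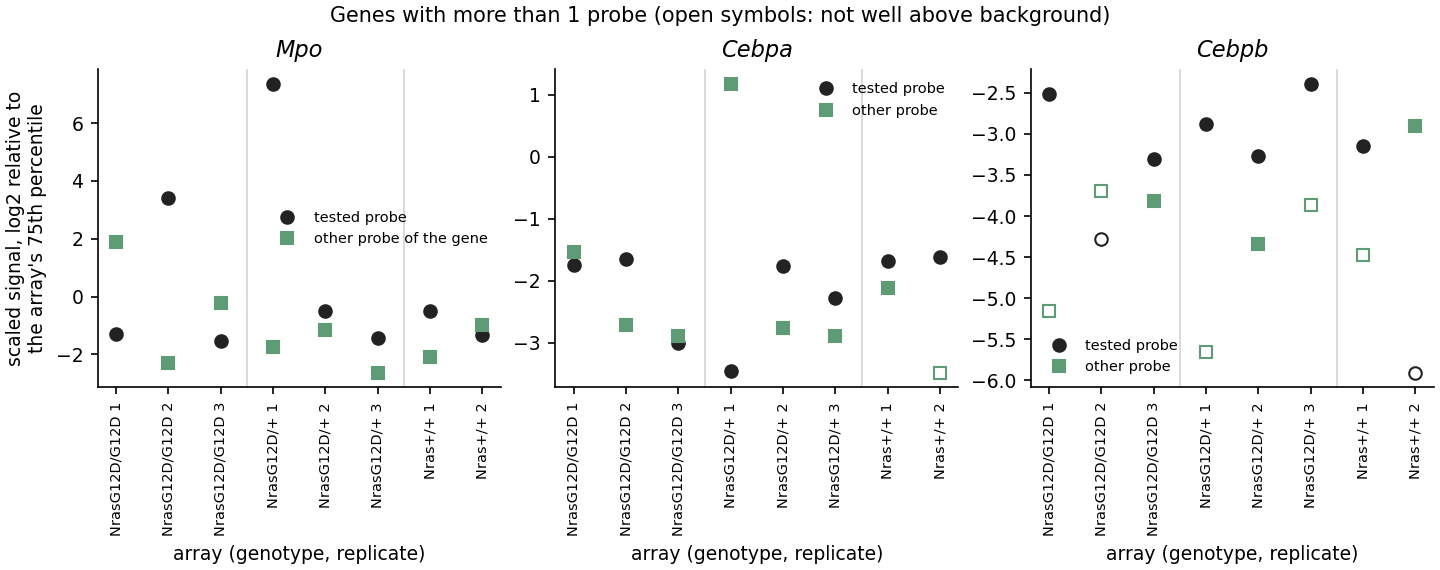
Scaled log2 signal (y axis) on each of the 8 arrays (x axis) for genes with more than 1 probe: circles are the tested probe, squares the other probe (for Mpo one that the files describe as the myeloperoxidase gene without its symbol), and open symbols were not well above background. The probes part on NrasG12D/+ replicate 1 for Mpo (7.36 and -1.75) and for Cebpa (-3.46 and 1.18), and on Nras+/+ replicate 2 for Cebpb (-5.91 and -2.91).

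The signal of Spi1, which encodes PU.1, was 3.58, 4.37 and 2.12 on the NrasG12D/G12D arrays, 47.4, 4.60 and 2.10 on the NrasG12D/+ arrays, and 3.48 and 4.96 on the Nras+/+ arrays. NrasG12D/+ replicate 1 was the high array and the only one well above background. The more often detected Itgam probe, for the CD11b integrin chain, gave 2.87, 4.99 and 3.65 on the NrasG12D/G12D arrays, 2.37, 20.8 and 2.5 on the NrasG12D/+ arrays, and 6.11 and 2.86 on the Nras+/+ arrays. NrasG12D/+ replicate 2 was its only array well above background. The further Itgam probe lay between 1.74 and 9.19 on the 8 arrays.

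Taking the 7 tested genes as a list, 3 had a higher mean in NrasG12D/G12D than in Nras+/+, where 35.4% of all genes did. In NrasG12D/+ 5 of the 7 were higher than in Nras+/+, against 41.7% of all genes, and 4 without NrasG12D/+ replicate 1. Between NrasG12D/G12D and NrasG12D/+ 3 were higher, against 42.1%. The median log2 change was -0.46 for NrasG12D/G12D against Nras+/+, where that of all genes was -0.44. It was 1.32 for NrasG12D/+ against Nras+/+, with -0.26 for all genes, and 0.12 without NrasG12D/+ replicate 1, with -0.21 for all genes. Between NrasG12D/G12D and NrasG12D/+ it was -0.52, with -0.20 for all genes. In each comparison 2 of the 7 genes had groups that did not overlap, 1 higher and 1 lower, against 28.8%, 25.2% and 11.6% of all genes in the order of comparisons just given. Of all genes 6.02% were higher and 22.8% lower in this way for NrasG12D/G12D against Nras+/+, 8.91% and 16.3% for NrasG12D/+ against Nras+/+, and 2.89% and 8.68% for NrasG12D/G12D against NrasG12D/+. The members concerned were Cd33 on the higher side each time, and on the lower side Ctsg in both comparisons of NrasG12D/G12D and Cebpa in NrasG12D/+ against Nras+/+. For NrasG12D/+ against Nras+/+ the separation of Cd33 lies between surrogate values and is not a measured difference. They were -5.95 on NrasG12D/+ replicate 3, and -6.70 and -6.08 on the Nras+/+ arrays.

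**Figure D3:**
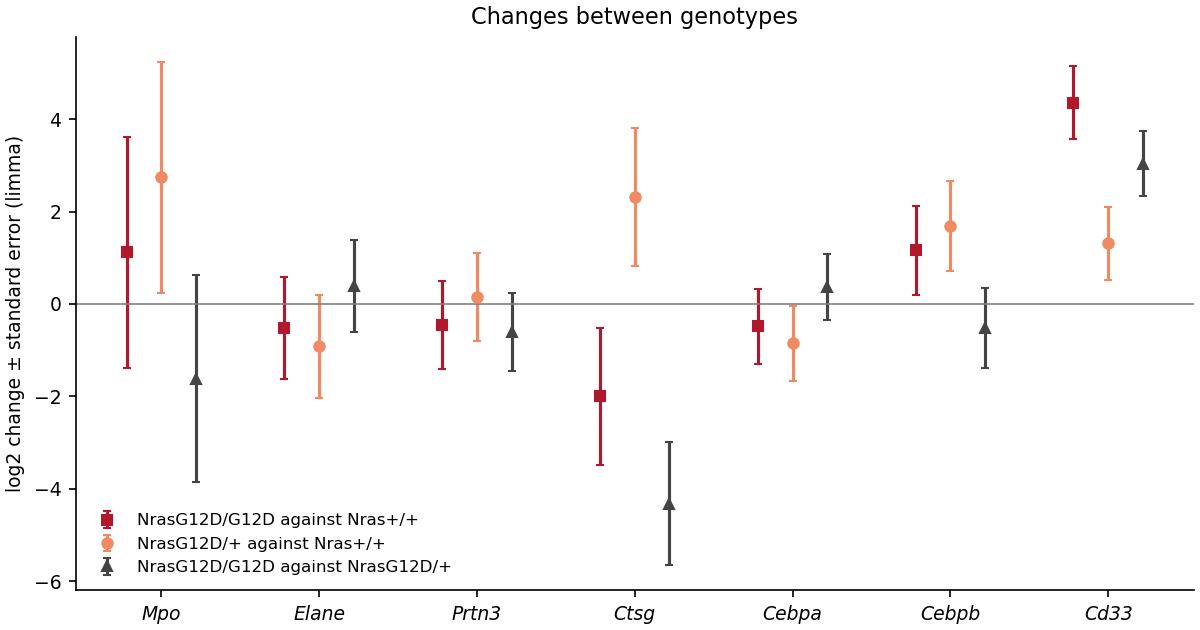
Log2 change with its limma standard error (y axis) of the 7 tested genes in the 3 comparisons of genotypes. Cd33 has changes of 4.36 and 3.04 with NrasG12D/G12D on top, Ctsg has -4.32 against NrasG12D/+, and the error bars of Mpo, with SE of 2.24 to 2.5, are the widest of the 7.

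Other genes of granulocyte-monocyte progenitors were tested for 10 of 16. Of these, 6 had a higher mean in NrasG12D/G12D than in Nras+/+ and 7 in NrasG12D/+ than in Nras+/+, and none passed in limma. Hp, which encodes the hemoglobin-binding protein haptoglobin, had scaled log2 signals of -0.80, -2.83 and -5.73 on the NrasG12D/+ arrays, against -6.61 and -5.95 on the Nras+/+ arrays. It was well above background on NrasG12D/+ replicates 1 and 2 only, and so passed the filter through NrasG12D/+ alone. Its change was 3.16 (SE 1.30, limma adjusted p = 0.813), at least 1.99-fold higher, and no bound above 1 was left without NrasG12D/+ replicate 1. Without NrasG12D/+ replicate 1, 4 of the 10 had a higher mean in NrasG12D/+ than in Nras+/+, and the median of the 10 relative to that of all genes was 0.03 in place of 0.56. In NrasG12D/G12D against Nras+/+ the lowest p values were those of Serpinb1a, an inhibitor of neutrophil serine proteases, and Cst7, an inhibitor of cysteine cathepsins. Each was well above background on 2 NrasG12D/G12D arrays and on no Nras+/+ array, and so passed the filter through the mutant genotypes alone. Cst7 was at least 1.18-fold higher, with no bound above 1 without NrasG12D/G12D replicate 2 or without Nras+/+ replicate 1, and Serpinb1a had none.

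Among other myeloid transcription factors, 9 of 14 were tested, and 3 had a higher mean in NrasG12D/G12D and 1 in NrasG12D/+ than in Nras+/+, with none past the threshold. Cebpz gave -1.64 (SE 0.72, limma adjusted p = 0.727) for NrasG12D/G12D against Nras+/+, at least 2.06-fold lower, or 1.46 without Nras+/+ replicate 2. Irf5, an interferon regulatory factor of macrophages, gave -0.99 (SE 0.86), at least 1.82-fold lower, or 1.17 without Nras+/+ replicate 2. Each of them was well above background on both Nras+/+ arrays and on 0 of the 3 NrasG12D/G12D arrays. Cebpz and Irf5 thus passed the filter through NrasG12D/+ and Nras+/+ alone. Cbfb, the partner of the RUNX factors, was the 1 gene of the list with a higher mean in NrasG12D/+ than in Nras+/+, at 3.31 (SE 1.41, limma adjusted p = 0.813). It had no value on 4 arrays, so that this rests on -0.54 on NrasG12D/+ replicate 3, against -2.80 and -4.90 on the Nras+/+ arrays.

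Of the mature neutrophil genes, 10 of 18 were tested. The mean was higher in 2 of the 10 both in NrasG12D/G12D and in NrasG12D/+ when set against Nras+/+. In NrasG12D/G12D, 5 of the 10 lay below Nras+/+ without overlap, against 22.8% of all genes, but 4 of the 5 were above background on no NrasG12D/G12D array and on at most 1 Nras+/+ array. The median was -0.64 relative to all genes, and that of the T and NK cell markers was -0.74. Ltf, the lactoferrin of secondary granules, gave -3.12 (SE 1.05, limma adjusted p = 0.727), at least 2.53-fold lower, with -4.69 and -1.14 on the Nras+/+ arrays. Without Nras+/+ replicate 2 no bound above 1 was left. Pglyrp1, a peptidoglycan-binding granule protein, gave -3.03 (SE 2.05), at least 3.05-fold lower, and had no bound above 1 without Nras+/+ replicate 1. Each of the 2 was well above background on 1 of the 2 Nras+/+ arrays and on no NrasG12D/G12D array. Ltf and Pglyrp1 thus passed the filter through NrasG12D/+ and Nras+/+ alone. S100a9, a calcium-binding protein abundant in neutrophils, was well above background on 2 NrasG12D/+ arrays and on none of the other genotypes, and so passed the filter through NrasG12D/+ alone. It was at least 11.9-fold lower in NrasG12D/G12D than in NrasG12D/+ (limma adjusted p = 0.803) and at least 10.8-fold higher in NrasG12D/+ than in Nras+/+ (limma adjusted p = 0.813). Without NrasG12D/+ replicate 1 these bounds were 1.11 and 1.01. It stood at 6.15 on NrasG12D/+ replicate 1 and between -6.45 and -3.64 on the other 7 arrays.

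Of the monocyte and macrophage genes, 9 of 16 were tested. Of these, 3 had a higher mean in NrasG12D/G12D and 5 in NrasG12D/+ than in Nras+/+, and 2 in NrasG12D/G12D than in NrasG12D/+. Itgax, which encodes CD11c, gave -2.53 (SE 1.0, limma adjusted p = 0.803) for NrasG12D/G12D against NrasG12D/+, without overlap. Lyz2, the lysozyme of myeloid cells, gave 2.12 (SE 1.55) for NrasG12D/G12D against Nras+/+, with 2.01 on NrasG12D/G12D replicate 3, and -2.77 and -2.66 on the other NrasG12D/G12D arrays.

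NrasG12D/+ replicate 1 was the highest of the 8 arrays for 5 of the 9 progenitor genes without a missing value, 2 of the 9 mature neutrophil genes, 2 of the 9 monocyte and macrophage genes and 2 of the 7 genes this account is about. Of the other myeloid transcription factors, 1 of 8 was highest on this array, where their median deviation from their own medians was -0.49. It was the highest for 12.8% of all genes, and, outside the myeloid lists, for 2 of 6 megakaryocyte markers, 1 of 9 B cell markers, 1 of 9 T and NK cell markers, 0 of 7 erythroid markers and 0 of 3 markers of mast cells, basophils and eosinophils. Besides Mpo, the further Cebpa probe and Spi1, the genes with their highest value there included S100a9, Hp, Cst7, Csf1r, the receptor for macrophage colony-stimulating factor, and Fcgr3, an Fc receptor. The tested Cebpa probe (-3.46) and the mature neutrophil gene Pglyrp1 (-6.56) were at their lowest there. The median deviation of the monocyte and macrophage genes from their own medians was 0.01 there. It was 0.77 for the progenitor genes, 0.40 for the 7 genes this account is about and -0.14 for all genes. The megakaryocyte marker Gp1ba also had its highest value there, 6.29 log2 units above the median of the other 7 arrays. Csf1r and Gp1ba are named here after their values were seen. The summed scaled signal of the mature neutrophil genes was 72 on this array and 0.293 to 3.24 on the other 7, nearly all of it from S100a9. The median deviation of these genes from their own medians was only 0.07 on this array. Of that list S100a8, Camp, Lcn2 and Csf3r were well above background on no array. Mmp9 and Cxcr2 were so on all 8, Padi4 on 6 and Mmp8 on 5.

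Of the HSC markers, 0 of 7 were highest on NrasG12D/+ replicate 1, and they were low there. Their mean scaled log2 signal was -3.17, against -3.00 to -1.70 on the other arrays, and their median deviation was -0.88, against -0.49 to 0.76. The part of other cell types in the values of Mpo, Spi1 and Cebpa on this array was not tested.

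**Figure D4:**
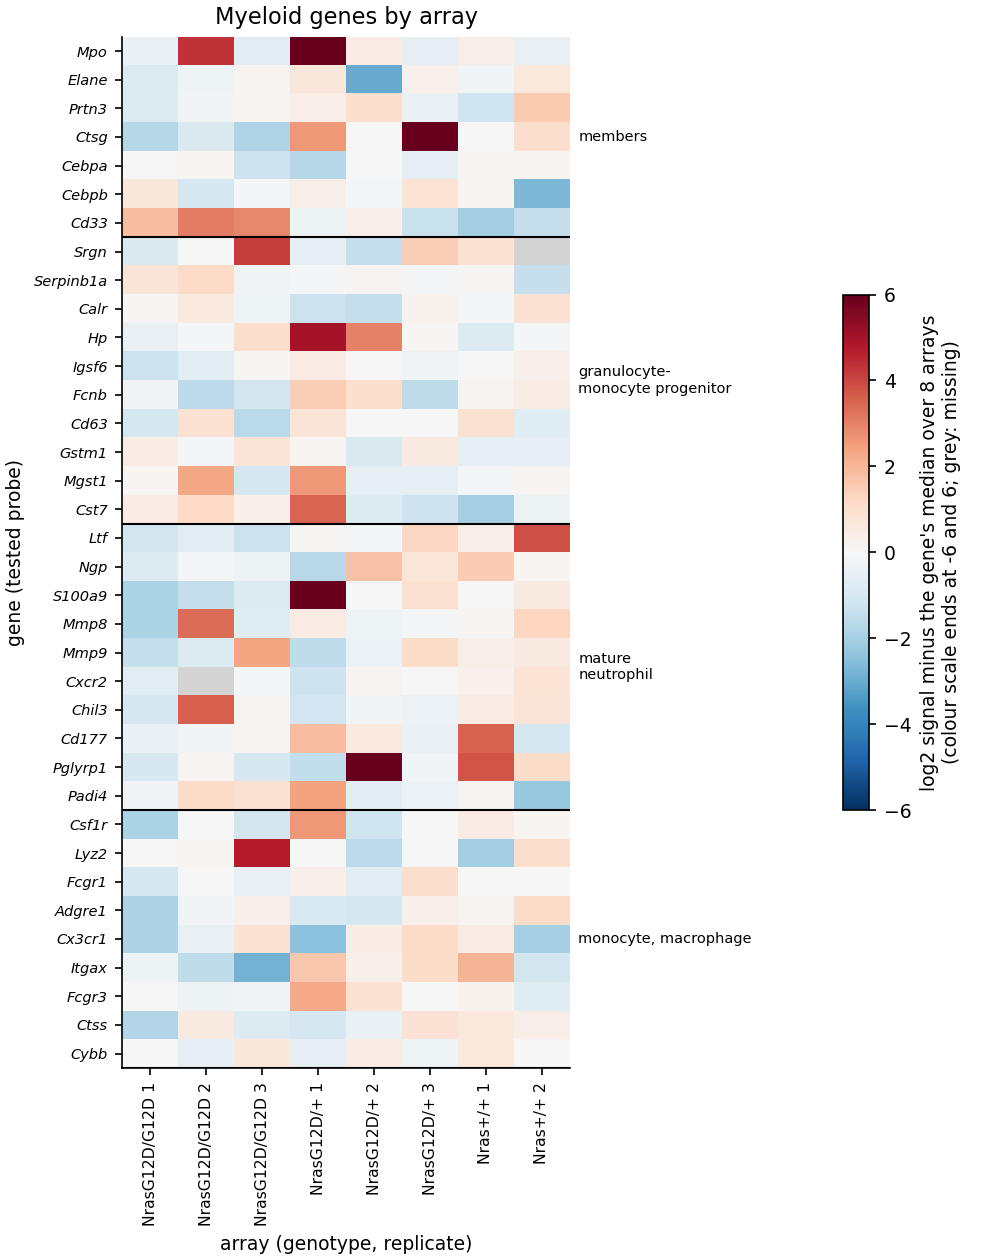
Log2 signal minus the median over the 8 arrays for the 7 tested genes and for the tested progenitor, mature neutrophil and monocyte or macrophage genes (colour, ends at -6 and 6, grey where missing), with arrays in columns by genotype and genes in rows by list. Mpo and S100a9 are dark red on NrasG12D/+ replicate 1, Ctsg on NrasG12D/+ replicate 3 and Pglyrp1 on NrasG12D/+ replicate 2, while Cd33 is red on all 3 NrasG12D/G12D arrays.

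Markers of other blood cells were set beside these values. For NrasG12D/G12D against Nras+/+, 6 of 9 tested B cell markers had a higher mean, 3 of 9 T and NK cell markers, 1 of 7 erythroid markers, 2 of 7 megakaryocyte markers, 2 of 3 markers of mast cells, basophils and eosinophils and 1 of 8 HSC markers. For NrasG12D/+ against Nras+/+ the counts were 4 of 9, 3 of 9, 3 of 7, 3 of 7, 1 of 3 and 0 of 8 in the same order. Between NrasG12D/G12D and NrasG12D/+ they were 6, 4, 5, 1, 1 and 5. The summed scaled signal of the B cell markers was 2.88 to 4.80 on the NrasG12D/G12D arrays, 2.80 to 4.18 on the NrasG12D/+ arrays and 3.16 to 3.52 on the Nras+/+ arrays, and their part in the values of Cd33 was not tested. Among the genes of lowest p, Ly6a, which encodes the stem cell antigen Sca-1, gave -1.32 (SE 0.89) in NrasG12D/G12D and -2.32 (SE 0.89) in NrasG12D/+ against Nras+/+. Ncr1, an activating receptor of NK cells, gave -2.65 (SE 0.84) and -1.64 (SE 0.84) in the same comparisons. In the same order, the B cell factor Pax5 was at least 2.06-fold and 2.75-fold higher. Of the other B cell markers, Cd79b gave -2.34 (SE 1.09) in NrasG12D/G12D against Nras+/+ and Vpreb3 -1.08 (SE 0.71) in NrasG12D/+ against Nras+/+. Pax5 was above background on no Nras+/+ array, and so passed the filter through the mutant genotypes alone. None passed in limma (adjusted p = 0.727 to 0.813). Of the mast cell, basophil and eosinophil markers, Tpsb2 and Siglecf were well above background on all 8 arrays. Fcer1a was so on 5, and Cpa3, Mcpt8 and Ms4a2 on none.

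The genes whose pattern over the 8 arrays was most like that of Mpo were Psmb10 (Pearson r = 0.98), a subunit of the immunoproteasome, and Eif4g3 (r = 0.975), a translation initiation factor, out of 5638 genes measured on all arrays. In all, 29 of these genes had an r above 0.9 with Mpo, a pattern governed by NrasG12D/+ replicate 1. For the tested Cebpa probe they were Bsdc1 (r = 0.946) and Wdr81 (r = 0.927), the only 2 genes with an r above 0.9. These values describe likeness over 8 arrays that share their scaling, and carry no test.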

How the data were processed

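The members and gene lists were chosen with earlier results of these data known. Scanner files were deposited as written by Feature Extraction 10.5.1.1 (Agilent). Their processed signal is a linear intensity, corrected by that software for background and spatial trend, per the file headers. The deposited value table holds a ratio: each column equals the processed signal over the array's median (largest relative deviation 1.7e-06). Its median is 1, with no centring per gene.

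Outlier spots (120 to 464 an array) became missing values, with no saturated spot found. Log2 signals were averaged over the spots of each of the 41174 probes and scaled to the 75th percentile over 6579 probes, those well above background everywhere. Of 15098 genes tested, 5999 were above background on all arrays. The groups were fitted together with limma 3.58.1 in R 4.3.3 (two-sided, Benjamini-Hochberg adjustment over all genes at 0.05). The prior SD was 1.05 with 3.9 degrees of freedom beside 5 residual ones, and precision is limited by the few arrays, with a median SE of 0.87 to 0.97. The test was checked on simulated data. Alternatives were normexp background correction, quantile normalization, scaling over all probes, no filter, a filter on all 8 arrays, the slide or replicate number as a block, within-slide fits, the value table, each probe by itself and leaving out each array. All members were named, with at most the 2 genes of lowest p per other list and comparison and the 2 genes most like a member measured on all arrays. Counts without NrasG12D/+ replicate 1, and at-least folds without each array, were alternatives chosen after seeing the data. The likeness used Pearson's r. RefSeq promoters are of build GRCm38.p6.

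Names came from a RefSeq table for 24375 probes by accession, 6301 by symbol and 2419 by synonym, and from the file for 8079.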

Additional observations from a re-analysis of the deposited data

Results flagged for a closer look

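A further probe of the arrays is described in the files as the mouse gene for the chains of myeloperoxidase but carries no gene symbol, so the choice of probes by name left it out. It enters no count or test of the members and is shown above only beside the Mpo probe. It was well above background on all 8 arrays. Its scaled log2 signal was 1.90 on NrasG12D/G12D replicate 1, above the -2.07 and -0.97 of the Nras+/+ arrays. On the other NrasG12D/G12D arrays it was -2.28 and -0.23, and on the NrasG12D/+ arrays -1.75, -1.16 and -2.64. Its high array was thus not NrasG12D/+ replicate 1, where the Mpo probe was highest. The log2 changes of this probe were 1.32 (SE 1.18) for NrasG12D/G12D against Nras+/+, -0.33 (SE 1.18) for NrasG12D/+ against Nras+/+ and 1.65 (SE 1.05) for NrasG12D/G12D against NrasG12D/+, with limma adjusted p of 0.773, 0.947 and 0.832.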

How the results depend on the processing

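No change of a tested gene reached an adjusted p under 0.05 in any of 356 alternative values, and 319 of them kept the sign. Many of the 319 could not turn, so this count does not measure robustness. Leaving out an array of the genotype outside a comparison leaves its changes as they are. The fit with no filter, and that of each probe by itself for genes with 1 tested probe, also repeat the main change. Cd33 kept its sign in both comparisons of NrasG12D/G12D, with 0.59 to 5.68 against Nras+/+ and 0.93 to 3.92 against NrasG12D/+, and Ctsg with -6.70 to -0.52 and -7.45 to -1.72. For NrasG12D/+ against Nras+/+ normexp turned Prtn3 to -0.42, Cebpb to -0.13, Cd33 to -0.34 and, through the further probe, Cebpa to 0.53, and the further probes gave -0.93 for Cebpb and 1.31 for Cebpa. Leaving out arrays gave -1.23 to 1.53 for Prtn3, -1.60 to 0.24 for Elane and -0.03 to 4.36 for Mpo. In NrasG12D/G12D against Nras+/+ Prtn3, above background in neither genotype, turned to 0.02 with quantile normalization, 0.03 with scaling over all probes, 0.64 with the slide as a block and 0.17 in the value table. Cebpb turned to -0.01 with normexp and -0.52 with its further probe, Elane to 0.11 in the value table, and Cebpa to 0.01 with scaling over all probes, 0.15 in the value table and 0.42 with its further probe. Leaving out arrays gave -1.84 to 0.92 for Prtn3, -0.22 to 2.54 for Cebpb and -0.49 to 1.98 for Mpo. Between NrasG12D/G12D and NrasG12D/+ normexp turned Prtn3 to 0.16, Cebpb to 0.12 and Cebpa to -0.61, and the further probes gave 0.41 for Cebpb and -0.89 for Cebpa. Within slide 2, and equally with the slide as a block, Prtn3 was 0.12, Elane -0.55 and Mpo 1.63. Leaving out arrays gave -0.76 to 1.08 for Elane, -0.11 to 0.80 for Cebpa and -3.24 to 1.15 for Mpo. The causes were not tested.

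The replicate number as a block left 0 genes called in each comparison, with Cd33 at 4.51 for NrasG12D/G12D and 1.47 for NrasG12D/+ against Nras+/+, and 3.04 between the mutant genotypes. Whether the numbers pair the samples was not settled. Deviations from the group means correlated at -0.088 to 0.08 for same-numbered arrays and at -0.117 to 0.111 for the others. With 2 arrays the deviations of Nras+/+ mirror each other, so these values cannot decide it. Over all genes, 0 were called in each comparison. For NrasG12D/+ against Nras+/+ 1 was called with quantile normalization, scaling over all probes, no filter or the value table, and 0 to 10 on leaving out an array. For NrasG12D/G12D against Nras+/+ 1 was called with quantile normalization, no filter or the slide as a block, and 0 to 9 on leaving out an array. For NrasG12D/G12D against NrasG12D/+ 4 were called with the slide as a block and 0 to 2 on leaving out an array. Signals near background limit Prtn3, Spi1 and Itgam most.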
